A study of Bos taurus and Sus scrofa with 6 samples.

Results

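Leydig cells were picked from the 3 cattle testis libraries by a gate on their own marker genes. A barcode was kept when LHCGR, CYP17A1, CYP11A1, STAR, HSD3B and INSL3 held at least 4 unique molecular identifiers (UMIs, tags that count each captured RNA molecule once) over at least 3 of these 6 genes. It was dropped when at least 2 genes of a germ cell set (DDX4, DAZL, MAEL, TDRD1), a Sertoli cell set (FSHR, AMH, CLDN11) or a lymphocyte set (CD3E, CD3D, NKG7) also had a UMI. The gate left 2176 barcodes, here called gated cells, of 18504 called barcodes in cattle and of 27961 in the whole series. A further 210 barcodes passed the gate and were dropped. These 16 genes chose the cells, so their levels are given as a description and without a test.

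Leydig cells lie in the interstitium between the seminiferous tubules and make androgens. Luteinizing hormone acts on them through its receptor LHCGR, STAR moves cholesterol into mitochondria, CYP11A1 cleaves it to pregnenolone, and HSD3B and CYP17A1 convert the product towards androgens. INSL3 is a peptide hormone of these cells, best known for its part in the descent of the testis. The cholesterol comes from lipoproteins taken up through receptors such as SCARB1 or from synthesis in the cell.

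The study profiled testes of prepubertal Holstein cattle aged 4.5 months and of mixed breed pigs aged 3 months by droplet single-cell RNA-sequencing, with 3 animals of each species and 1 library per animal. Testes were obtained by castration, the parenchyma was digested with trypsin and then collagenase, and live cells were loaded without a sort, so the libraries hold whole testicular suspensions. The labels name no treatment, allele or genotype, and all 3 cattle share breed and age. They repeat 1 testis number in 2 of the cattle libraries, whose animal tags differ, and each library was counted as 1 animal because the methods state 3 animals.

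The libraries differed widely in depth. They held 5805223, 27409347 and 53325608 UMIs in cattle 1, 2 and 3, and the called barcodes numbered 3545, 8751 and 6208 at minimum totals of 460, 972 and 2644 UMIs. Gated cells numbered 826, 673 and 677, which was 23.3% (exact 95% binomial interval 21.9 to 24.7), 7.69% (7.14 to 8.27) and 10.9% (10.1 to 11.7) of called barcodes, with a mean of 14.0% ± 8.24 (SD, n = 3). The share was highest in cattle 1, the shallowest library, and its interval lay apart from those of cattle 2 and 3. When all barcodes were thinned to 460 UMIs before the gate, the gated cells numbered 471, 383 and 211, or 13.3%, 4.38% and 3.40% of called barcodes, and the order of cattle 2 and 3 turned. The median depth of gated cells was 1030.5, 1918 and 5285 UMIs, against 734, 1698 and 4407 UMIs in the other called barcodes. The intervals cover counting error only, and a share of loaded cells also holds the yield of the digestion.

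UMIs of the gate genes were also present in empty droplets. Empty droplets, here any barcode of 50 UMIs or fewer, carried 11.5%, 2.69% and 1.82% of their UMIs on the 6 gate genes in cattle 1, 2 and 3, nearly all of it INSL3 (11.13%, 2.45% and 1.74%). Lymphocytes here were called barcodes that failed the gate, held at least 2 of the lymphocyte genes and had neither other drop signature. INSL3 had a UMI in 95.8%, 78.5% and 98.9% of lymphocytes, a class that should lack it, and a UMI of INSL3 alone was read as background. The part of free RNA and of doublets in these lymphocyte UMIs was not tested. CYP17A1 had a UMI in 91.4%, 85.3% and 85.2% of gated cells and in 10.6%, 7.22% and 12.05% of lymphocytes, whose median depth was 625.5, 1395 and 3692.5 UMIs. After every cell was thinned to 460 UMIs, which left out no called cell, the shares were 68.3%, 61.1% and 52.1% against 7.04%, 2.72% and 1.69%. CYP17A1 is a gate gene, so its share in gated cells is raised by the rule. Its share in lymphocytes, which exclude barcodes that pass the gate, is lowered by the same rule. With CYP17A1 left out of the gate its mean level was 3062 ± 559 CPM (SD, n = 3), against 2703 ± 537 CPM with it. The gate on the remaining 5 genes kept fewer cells, 357, 502 and 485, so the 2 means come from different sets of cells. Barcode sequences shared between libraries numbered 45 for cattle 1 and 2, 23 for cattle 1 and 3 and 71 for cattle 2 and 3, against 42.1, 29.8 and 73.7 expected from the numbers of barcodes alone, and 2 of the shared barcodes were gated in both libraries.

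The gated cells fell into 2 populations. The gate share, the percentage of the UMIs of a cell that lay on the 6 gate genes, had a low and a high mode in each animal with few cells between them. At a limit of 2%, chosen after the distribution was seen, 712, 436 and 414 gated cells of cattle 1, 2 and 3 lay in the high mode (1562, or 71.8%) and 114, 237 and 263 in the low mode (614, or 28.2%). Only 29, 41 and 19 gated cells had a gate share between 1% and 3%. The median gate share was 15.9%, 11.6% and 9.78% in these high-share cells and 0.782%, 0.279% and 0.174% in the low-share cells. In stromal cells, called barcodes outside the gate with at least 4 UMIs over at least 3 of PDGFRA, TCF21, DCN, LUM, COL1A1, COL1A2 and COL3A1, it was 0.588%, 0.115% and 0.134%.

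**Figure D1:**
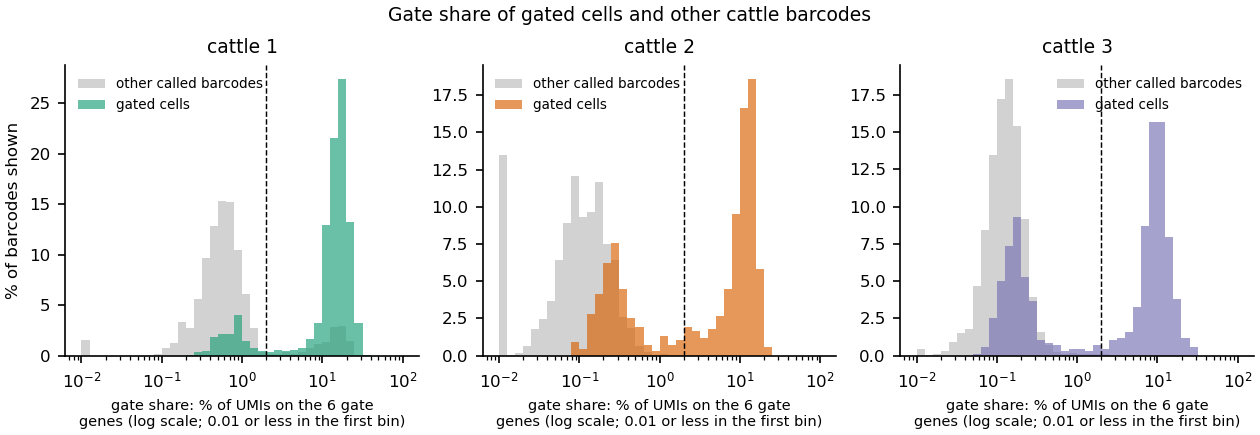
Gate share (percentage of UMIs on the 6 gate genes, log axis) of gated cells (colored) and other called barcodes (grey) in cattle 1, 2 and 3, as the percentage of the barcodes of each kind. The dashed line marks 2%. In each animal the gated cells form a mode near 10% or above and a smaller mode that overlies the other barcodes, and cattle 1 also has other barcodes under its high mode.

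The label was checked on markers that the gate and the 2% limit did not use. The 6 Leydig markers are the gate genes, so their difference between the sets is fixed by the limit and bears on no name. All 6 had UMIs in both sets, with a summed level of 155190, 108690 and 103466 CPM (the usual depth-scaled count, here the UMIs of a gene in a sum of cells scaled to the same total in every sum) in the high-share cells of cattle 1, 2 and 3 and 6937, 3720 and 2258 CPM in the low-share cells. The 7 stromal markers, DCN foremost, summed to 662, 1092 and 882 CPM in high-share cells and to 3690, 6641 and 7631 CPM in low-share cells. In stromal cells, which were chosen by stromal genes, they summed to 8936, 10308 and 8915 CPM, a level that this choice raises. In all called barcodes outside the gate they summed to 3246, 4492 and 4037 CPM. The 6 markers of peritubular myoid cells, the contractile cells around the tubules, with ACTA2 foremost, summed to 451, 294 and 525 CPM in high-share cells and to 4294, 4160 and 9732 CPM in low-share cells. The low-share cells were the deeper ones, with a median of 1137.5, 2222 and 5615 UMIs against 1020.5, 1801.5 and 5138 UMIs. The low-share cells thus carried stromal and myoid markers that go against the label, and they are described below by their gate share alone. Endothelial markers summed to 2.71 ± 1.21 CPM and macrophage markers to 306 ± 72.4 CPM in the high-share cells (SD, n = 3), and macrophages themselves reached 18646 CPM for the latter list. Germ cell markers summed to 5.60 ± 0.319 CPM in high-share cells, a level that the drop step on the same 4 genes lowers. Low-share cells were higher for these lists too, with means of 19.6 CPM (endothelial), 777 CPM (macrophage) and 26.7 CPM (germ cell). Sertoli cell and lymphocyte markers had means of 145 and 246 CPM in low-share cells against 35.8 and 138 CPM in high-share cells. Erythroid markers stood at 0 CPM in low-share and 0.308 CPM in high-share cells.

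Among the gate genes INSL3 dominated. It reached 149355, 93081 and 97404 CPM in the high-share cells of cattle 1, 2 and 3, or 14.9%, 9.31% and 9.74% of all their UMIs. In low-share cells it stood at 5179, 2190 and 1764 CPM and in stromal cells at 6729, 1080 and 1376 CPM, which overlap. CYP17A1, whose product makes the androgen precursors, reached 3112, 5217 and 3633 CPM in high-share cells and 654, 407 and 128 CPM in low-share cells. STAR, the cholesterol carrier, stood at 1989, 9022 and 1887 CPM in high-share cells. Cattle 2 was thus far above the other 2 animals, which were close to each other. LHCGR, the hormone receptor, was weaker at 74.5, 131 and 124 CPM in high-share cells, with 18.7, 15.5 and 5.20 CPM in low-share cells and 0.779, 0.882 and 0.918 CPM in all other barcodes. CYP11A1 did not separate the modes, with 397, 745 and 256 CPM in high-share and 524, 534 and 214 CPM in low-share cells. HSD3B was at 264, 493 and 161 CPM in high-share cells and 218, 248 and 45.5 CPM in low-share cells. A low-share cell had to carry at least 3 of the 6 genes to enter the gate, so the levels in that set are raised by the rule.

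The limit of 3 genes decided many cells. Gated cells with exactly 3 of the 6 genes numbered 533, 262 and 286, with a median gate share of 14.0%, 0.303% and 0.188%. Just outside, 819, 880 and 1616 barcodes had at least 4 UMIs over 2 genes, with a median gate share of 0.849%, 0.227% and 0.145%. The limit of 4 UMIs mattered less, as only 3, 55 and 7 gated cells had exactly 4.

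**Figure D2:**
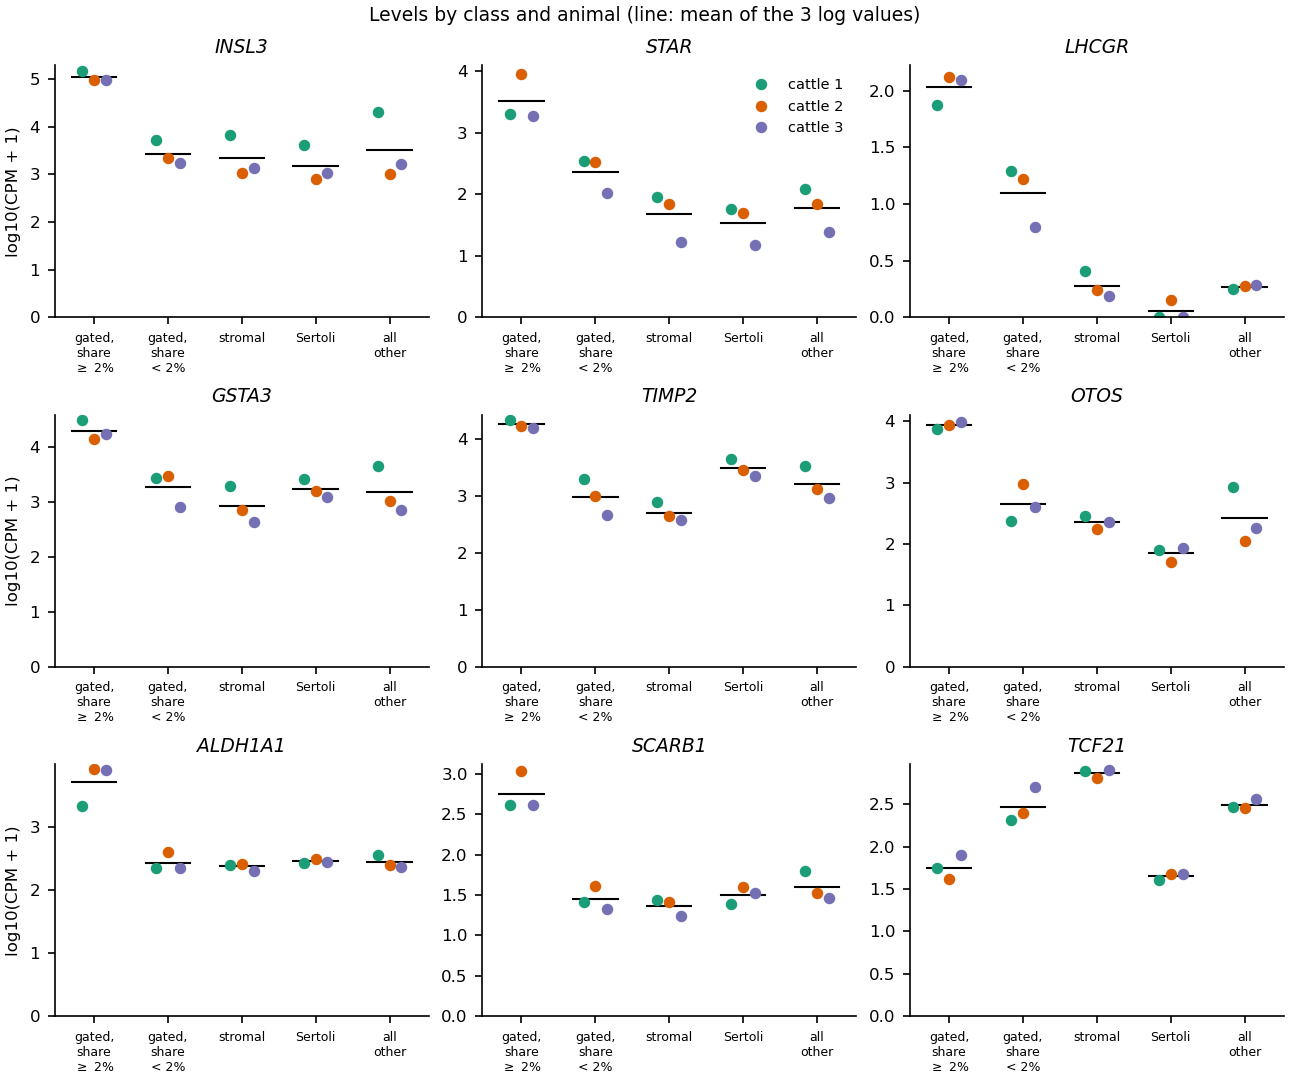
Level of 9 genes (log10 of CPM plus 1) in high-share gated cells, low-share gated cells, stromal cells, Sertoli cells and all other called barcodes. Each point is 1 animal and each line the mean of the 3 log values. INSL3, STAR and LHCGR belong to the gate, and TCF21 to the genes that define stromal cells. GSTA3, TIMP2, OTOS, ALDH1A1 and SCARB1 stand highest in high-share cells of all 3 animals, and TCF21 stands highest in stromal cells.

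Several genes outside the gate were among the most abundant of the high-share cells (these examples were chosen after their values were seen). GSTA3, a glutathione transferase whose human counterpart also isomerizes steroid intermediates, reached 31359, 14131 and 17600 CPM in high-share cells of cattle 1, 2 and 3. Against the other barcodes GSTA3 did not pass for all gated cells (edgeR, log2 fold change 3.23 ± 0.75, adjusted p = 0.0570). It passed for high-share cells (4.59 ± 0.52, adjusted p = 0.000949) and, for all gated cells, with a replicate block for the animal, described below. Its mean over the 3 animals was below that of INSL3 and above that of TIMP2. A second gene identifier with the same symbol was at 22.6, 8.33 and 15.2 CPM, and reads of the 2 copies may be split. TIMP2, an inhibitor of matrix metalloproteinases, reached 21975, 17299 and 15949 CPM in high-share cells, with 797, 448 and 377 CPM in stromal cells. Sertoli cells also carried TIMP2, at 4510, 2871 and 2230 CPM. In every animal both genes were higher in the high-share cells than in the stromal and Sertoli cells.

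To ask which other genes set gated cells apart, UMIs were summed per animal over gated cells and over all other called barcodes and tested with edgeR (quasi-likelihood test, Benjamini-Hochberg adjusted p under 0.05, 3 animals). Of 14280 genes, 202 (1.41%) were higher and 182 (1.27%) lower in gated cells. Each animal gave both sums from 1 library, which pairs them. A replicate block for the animal raised the calls to 1476 genes (10.3%) higher and 1899 (13.3%) lower. The block gave very small values, such as an adjusted p of 7.5e-198 for OTOS (edgeR), from 3 animals. Its p-values are thus not read as a measure of the spread between animals, here or below. With high-share cells against barcodes under a gate share of 2%, without the block, the test called 772 of 14272 genes (5.41%) higher and 1153 (8.08%) lower. Leaving out cattle 2 or cattle 3 left 0 genes past the threshold in the test of all gated cells, with 1142 and 1237 genes at an unadjusted p under 0.05, while leaving out the shallow cattle 1 gave 599 higher and 688 lower. Scaled by library size alone, which moves the median log2 fold change of all genes from -0.16 to -0.50, the test of all gated cells called 147 higher and 594 lower. For high-share cells the counts were 84 higher and 32 lower without cattle 2, 258 and 248 without cattle 3, and 1038 and 1447 without cattle 1.

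The genes with the largest rise included secreted, metabolic and sterol genes. TTC36, a tetratricopeptide repeat gene, was at 49.4, 65.5 and 57.0 CPM in gated cells of cattle 1, 2 and 3 and at 5.84, 1.53 and 1.27 CPM in the other barcodes (log2 fold change 5.04 ± 0.56, SE, adjusted p = 0.00715). OTOS, the secreted protein otospiralin first known from the inner ear, was at 6159, 5611 and 5904 CPM against 857, 111 and 183 CPM (4.28 ± 0.73, adjusted p = 0.0236). The gated cells of all 3 animals lay above every other sum for both genes. ALDH1A1, an enzyme that makes retinoic acid from retinal, was at 1783, 5016 and 4739 CPM against 365, 249 and 230 CPM (4.09 ± 0.42, adjusted p = 0.00675). CDKN1C, an inhibitor of the cell cycle, was at 41.7, 66.2 and 30.5 CPM against 5.84, 2.18 and 3.80 CPM (3.99 ± 0.44, adjusted p = 0.00675). Groups did not overlap for either gene. Without cattle 1, whose other barcodes include 322 with a gate share of at least 2%, TTC36 stood at 5.79 and OTOS at 5.63 on the log2 scale, and the high-share cells of all 3 animals gave 6.74 and 6.36. CDKN1C stood at 3.35 without cattle 2.

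Of the other genes in this leading set, GRAMD1B, which carries cholesterol from the plasma membrane to the endoplasmic reticulum, rose by 4.21 ± 0.48 on the log2 scale, from a mean of 1.90 to 24.0 CPM. MSMB, a secreted protein best known from the prostate, rose by 4.23 ± 0.77 and ERP27, a chaperone of the endoplasmic reticulum, by 4.22 ± 0.79. NTN5, a member of the netrin family, rose by 3.93 ± 0.75. Without cattle 1 MSMB stood at 4.84 and ERP27 at 5.20, without cattle 2 MSMB at 3.65, and without cattle 3 ERP27 at 3.52. TM7SF2 belongs to the cholesterol genes described next.

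Among the 10 largest falls were several genes known from germ cells. SYCP1 and SYCE3 of the synaptonemal complex, SMC1B, a meiotic cohesin subunit, TDRD9 and DDX43, RNA helicases of germ cells, and CT47B1, a cancer-testis gene, fell by 3.20 to 4.30 on the log2 scale. SMC1B, for instance, stood at 2.19, 1.41 and 1.62 CPM in gated cells and at 18.7, 19.6 and 26.2 CPM in the other barcodes (log2 fold change -3.34 ± 0.39, adjusted p = 0.00786). The drop step removes cells with 2 or more germ cell genes from the gated side, so part of this difference is set by the rule. Without the deepest 5% of barcodes SMC1B stood at -1.93 (adjusted p = 0.235), SYCE3 at -0.64, DDX43 at -1.79, CYCT at -1.36, LY6K at -1.96, CT47B1 at -2.43, SYCP1 at -2.98 and TDRD9 at -3.34, and none of these 8 passed, while RASSF7 and ILDR2 did. LY6K, ILDR2, RASSF7 and CYCT, the cytochrome c of testis, were the other genes of this set. The gated side of these 10 genes held 1 to 19 UMIs each. Without cattle 3 the fitted values of RASSF7, TDRD9 and SYCP1 were -8.08, -8.54 and -9.46, which are no bounds, and those of DDX43 and CYCT were -2.78 and -3.91. CT47B1 stood at -4.36 and RASSF7 at -4.07 without cattle 1.

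Cholesterol synthesis was the gene group with the most calls. Of its 22 tested genes 12 were higher and 0 lower in gated cells, with a median log2 fold change of 2.38, against -0.16 over all genes tested, of which 1.41% were higher and 1.27% lower. With the replicate block 22 were higher, and for high-share cells 21, against 10.3% and 5.41% of all genes. MSMO1, a sterol demethylation enzyme, was at 592, 1426 and 411 CPM in gated cells against 190, 179 and 90.7 CPM elsewhere (log2 fold change 2.71 ± 0.48, adjusted p = 0.0278). TM7SF2, a sterol reductase, was at 304, 268 and 87.2 CPM against 45.6, 9.70 and 6.01 CPM (3.83 ± 0.82, adjusted p = 0.0451). CYP51A1 and fdft1, both of the pathway from farnesyl units to sterols, rose by 2.71 ± 0.50 and 2.01 ± 0.34. TM7SF2 stood at 3.72 without the deepest barcodes (adjusted p = 0.0534) and at 4.79 without cattle 1, and CYP51A1 at 1.99 without cattle 2. HMGCS1, which acts near the start of the pathway, was at 76.8, 896 and 96.4 CPM against 25.3, 47.2 and 34.6 CPM. It did not pass (3.59 ± 0.87, adjusted p = 0.0642). For high-share cells (edgeR, adjusted p = 0.0161) and with the replicate block (adjusted p = 2.14e-49) it passed. The block value does not reflect how far the 3 animals differed. The fold of HMGCS1 leans on cattle 2, whose gated level stood far above those of cattle 1 and 3.

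Uptake of cholesterol showed 2 of 11 tested genes higher and 0 lower, with a median log2 fold change of 1.04 against -0.16 over all genes, of which 1.41% were higher and 1.27% lower. With the replicate block 5 were higher and 0 lower, against 10.3% and 13.3% of all genes. For high-share cells, without the block, 5 were higher and 0 lower, with a median of 1.62, against 5.41% and 8.08% of all genes. SCARB1, the receptor for high-density lipoprotein, was at 344, 654 and 252 CPM in gated cells and 62.3, 33.0 and 28.5 CPM elsewhere (log2 fold change 3.67 ± 0.45, adjusted p = 0.00894). The gated cells of all 3 animals lay above every other sum. SOAT1, which esterifies cholesterol for storage, rose by 1.24 ± 0.25, and did not pass with library size alone (0.90, adjusted p = 0.0859).

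Steroid enzymes and carriers outside the gate gave 2 genes higher and 0 lower of 20 tested, against 1.41% and 1.27% of all genes, and 8 higher and 1 lower with the replicate block, against 10.3% and 13.3%. The 2 were FDX1 and FDXR, ferredoxin and its reductase, which pass electrons to the mitochondrial steroid enzymes. FDX1 was at 72.4, 209 and 85.6 CPM in gated cells and 26.1, 17.9 and 15.3 CPM elsewhere (log2 fold change 2.96 ± 0.42, adjusted p = 0.0144), and FDXR rose by 2.79 ± 0.53 (adjusted p = 0.0321). FDX1 stood at 2.35 without cattle 2. SRD5A1, which reduces testosterone to dihydrotestosterone, was at 9.87, 21.1 and 7.83 CPM against 5.45, 4.76 and 5.54 CPM and did not pass (1.61 ± 0.41, adjusted p = 0.0759, and 7.29e-06 with the replicate block). CYB5A, which helps the lyase step of CYP17A1, was at 8.78, 9.86 and 14.0 CPM against 8.18, 10.8 and 13.1 CPM and the ranges overlapped (0.39 ± 0.33, adjusted p = 0.576). For high-share cells 4 genes of the list were higher and 3 lower, the latter TSPO, AKR1B1 and AKR1C4, against 5.41% and 8.08% of all genes.

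HSD17B3, the enzyme that makes testosterone from androstenedione, had no UMI in the high-share cells of any animal. The depth there allows a level of up to 3.99, 3.57 and 1.38 CPM (3 counts of each sum). It was at 6.23, 3.45 and 3.25 CPM in low-share cells. In Sertoli cells it was at 0, 10.6 and 12.2 CPM, where the sum of cattle 1 was shallow and allows up to 23.8 CPM. The test of all gated cells against the other barcodes did not pass (adjusted p = 0.471). CYP19A1, HSD11B1 and PRLR did not reach 10 UMIs over the 6 sums and were not tested.

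**Figure D3:**
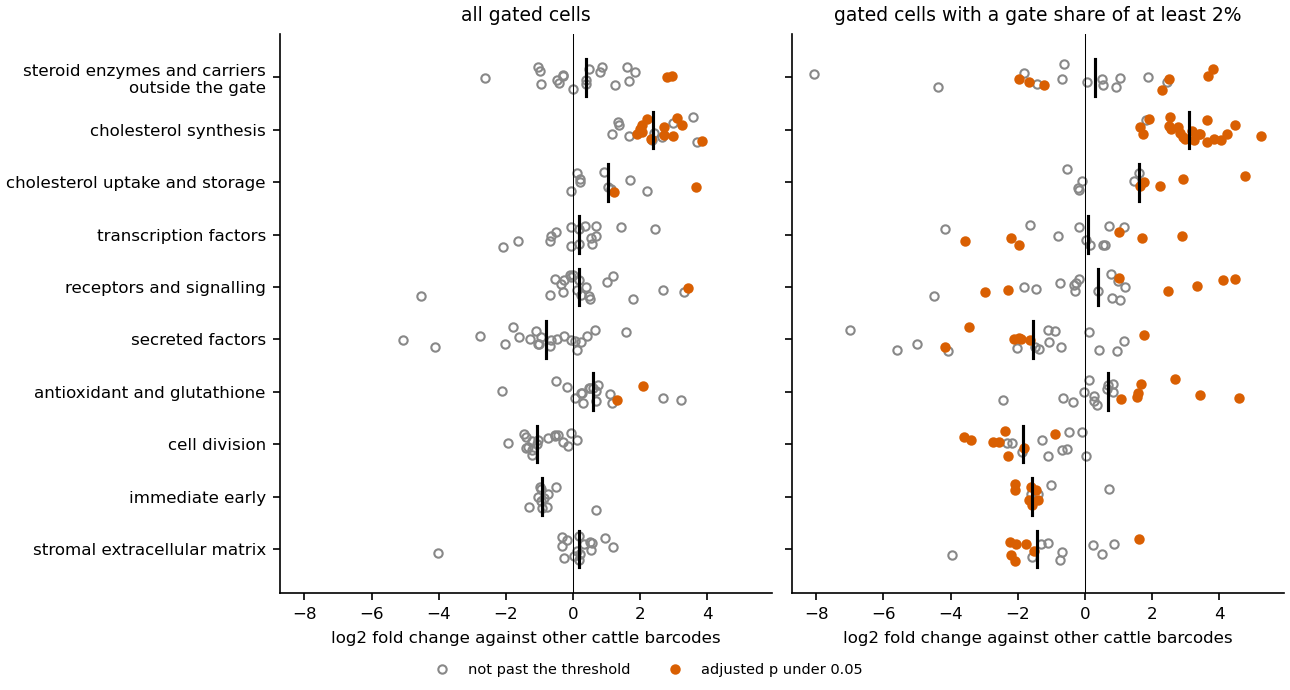
Log2 fold change of each tested gene of 10 lists against other cattle barcodes, for all gated cells (left) and for high-share cells (right). Each circle is 1 gene, filled where the edgeR adjusted p is under 0.05, and the black line is the median of the list. Cholesterol synthesis lies to the right of 0 in both panels, with 12 and 21 filled circles.

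The remaining lists gave few calls in the test of all gated cells, where 1.41% of all genes were higher and 1.27% lower. Among 21 receptors and signalling genes only KIT passed, and 6 were higher and 1 lower with the replicate block. KIT, a receptor tyrosine kinase best known from germ cells and mast cells, was at 99.8, 41.5 and 100.1 CPM in gated cells and 14.4, 5.35 and 10.3 CPM elsewhere (log2 fold change 3.42 ± 0.48, adjusted p = 0.0142). High-share cells carried 120, 65.5 and 169.8 CPM of KIT, more than the 22.0, 46.6 and 52.7 CPM of germ cells, here barcodes with at least 2 of the germ cell genes. The germ cell value of cattle 1 equals 3 counts in a shallow sum of 33 cells. Of 19 antioxidant and glutathione genes MGST1 and GSTA4, a microsomal and a cytosolic glutathione transferase, rose by 2.095 ± 0.22 and 1.32 ± 0.26 and 0 fell, with 12 higher and 2 lower under the replicate block. GSTA4 did not pass with library size alone (adjusted p = 0.0594) or without the deepest barcodes (adjusted p = 0.0637). No gene of the 16 transcription factors, 22 secreted factors, 18 cell division genes, 11 immediate early genes and 16 stromal matrix genes passed in either direction in edgeR without the block. With the replicate block, where 10.3% of all genes were higher and 13.3% lower, 5 transcription factors were higher and 4 lower. Secreted factors were then higher for 1 and lower for 9, cell division genes for 0 and 11, immediate early genes for 1 and 8, and stromal matrix genes for 3 and 1.

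In the high-share cells these lists gave more calls, as did all genes, of which 5.41% were higher and 8.08% lower. Cell division genes were lower for 8 of 18 and higher for 0, with a median log2 fold change of -1.84, against -0.36 over all genes tested. Immediate early genes, which digestion of tissue is known to induce, were lower for 7 of 11 and higher for 0, with a median of -1.56, and included FOS, JUN, EGR1 and MYC. Stromal matrix genes were lower for 6 of 16 and higher for 1, with a median of -1.42. Secreted factors were lower for 6 of 22 and higher for 1. Receptors and signalling genes were higher for 5 of 21 and lower for 2. Antioxidant and glutathione genes were higher for 7 of 19 and lower for 0. Transcription factors were higher for NR5A1, NR2F1 and EMX2 and lower for TCF21, LHX9 and PPARG, of 16 tested. NR5A1, the factor that drives steroid enzyme genes, was low at 6.66, 3.57 and 3.69 CPM in high-share cells, with 19 UMIs in all gated cells (adjusted p = 0.165 for all gated cells, 0.0425 for high-share cells, 0.0745 at a gate share of at least 5% and 0.0019 with the replicate block). NR2F2, a factor of interstitial cells, was at 95.4, 296 and 303 CPM in gated cells and 139, 182 and 223 CPM elsewhere (adjusted p = 0.403, 0.359 for high-share cells and 0.0028 with the replicate block).

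Of 5 further genes known from the interstitium, PDGFRA, DLK1, INHBA, IGF1 and TCF21, none passed for all gated cells in edgeR without the block. PDGFRA, a receptor of stromal precursors, was at 74.6, 301 and 358 CPM in gated cells and 134, 326 and 324 CPM elsewhere, and its log2 fold change was 0.23 ± 0.52 for all gated cells and -0.73 for high-share cells (adjusted p = 0.868 and 0.298). Its CPM was lower in gated cells in 2 of the 3 animals, and with library size alone the log2 fold change was -0.09. DLK1, a marker of immature stroma and Leydig precursors, was at 7.68, 1.41 and 2.97 CPM in gated cells and 14.0, 19.4 and 21.7 CPM elsewhere (adjusted p = 0.0757 for all gated cells, 0.0038 for high-share cells and 3.92e-09 with the replicate block). INHBA, a subunit of activins, was at 17.6, 23.2 and 41.03 CPM against 52.6, 67.5 and 110.1 CPM (adjusted p = 0.157, 0.00568 for high-share cells and 6.68e-08 with the replicate block). IGF1, a growth factor, was at 0, 2.11 and 8.64 CPM against 9.73, 7.82 and 18.1 CPM (adjusted p = 0.468, 0.121 for high-share cells and 0.00686 with the replicate block). TCF21, a stromal transcription factor, was at 81.2, 126 and 254 CPM against 292, 288 and 366 CPM (adjusted p = 0.383, 0.00418 for high-share cells and 1.76e-05 with the replicate block).

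Mitochondrial transcripts moved with the high-share cells. They made up 2.28%, 6.69% and 7.66% of UMIs in high-share cells of cattle 1, 2 and 3, 1.15%, 3.17% and 2.86% in low-share cells and 1.47%, 4.01% and 4.86% in the other barcodes. Their part in the results above was not tested. Gated cells that entered the test held 911720, 1420374 and 3704565 UMIs, so weak genes rest on few counts in cattle 1.

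Stromal cells share the interstitium with Leydig cells and are the class most like them in place. The stromal set here numbered 770, 3811 and 2805 cells and, by its ACTA2 level of 4584 CPM, also holds peritubular myoid cells. Against it 266 of 12073 genes (2.2%) were higher and 50 (0.414%) lower in gated cells, with 1457 (12.1%) and 1406 (11.6%) with the replicate block. For high-share cells 825 of 11870 genes (6.95%) were higher and 943 (7.94%) lower. In the test of all gated cells there were, without cattle 2, 20 higher and 0 lower, and without cattle 3 47 and 1. For high-share cells the counts were 192 and 188 without cattle 2 and 230 and 220 without cattle 3. For all gated cells library size alone gave 191 higher and 103 lower. The genes of both gates and of the drop step were not tested.

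GRAMD1B led the rise against stroma, with 24.1, 31.7 and 16.2 CPM in gated cells against 0, 0.447 and 0.154 CPM. CHCHD10, a protein of mitochondrial cristae, was at 105, 55.6 and 163 CPM against 0, 0.894 and 2.93 CPM. TTC36 and MSMB, described above, had 22 and 13 UMIs in all stromal cells. The stromal sum of cattle 1 held 0 UMIs of GRAMD1B, CHCHD10, TTC36 and MSMB, which allows up to 4.70 CPM. Without cattle 3 CHCHD10 stood at 6.87 and MSMB at 7.61 on the log2 scale, against 6.05 and 5.72 with all animals. These fitted values rest on stromal counts at or near 0 and are no bounds. TF, transferrin, the iron carrier of plasma, was at 441, 326 and 294 CPM in gated cells and 20.4, 7.30 and 7.48 CPM in stromal cells (log2 fold change 5.37 ± 0.45, adjusted p = 0.000754). In the high-share cells TF was even across animals, at 518, 527 and 497 CPM.

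The 5 largest falls against stroma were in genes of varied function. RBP4, the carrier of retinol, was at 95.4, 182 and 232 CPM in gated cells against 954, 849 and 850 CPM in stromal cells (log2 fold change -2.18 ± 0.31, adjusted p = 0.00851). EFEMP1, a fibulin of elastic matrix, and COX4I2, an isoform of cytochrome c oxidase found in lung and vessels, fell by 2.09 ± 0.41 and 1.96 ± 0.31. REM1, a small GTPase, and TPPP3, a tubulin-binding protein, fell by 1.91 ± 0.36 and 2.33 ± 0.44. The stromal sums of all 3 animals lay above every gated sum for RBP4, EFEMP1, COX4I2, REM1 and TPPP3.

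The gene lists gave 9 of 22 cholesterol synthesis genes higher and 0 lower against stroma, with a median of 2.12 against -0.03 over all genes tested, of which 2.2% were higher and 0.414% lower. They gave 4 of 19 steroid enzymes and carriers (FDX1, FDXR, SRD5A1 and MGARP, a mitochondrial protein) with 0 lower. With the replicate block the counts were 21 and 0 for cholesterol synthesis and 7 and 4 for the steroid list, against 12.1% and 11.6% of all genes. KIT rose by 5.35 ± 0.55. HHIP, which binds hedgehog ligands, fell by 1.49 ± 0.32, from 25.1, 19.2 and 23.4 CPM in stroma to 5.48, 6.34 and 8.10 CPM in gated cells, and stood at 1.33, 1.19 and 0.923 CPM in high-share cells. INHA, the inhibin alpha subunit, rose by 2.27 ± 0.41, and TOP2A, JUNB, MYC and FBLN1 fell. They were the only calls of 17 secreted, 18 cell division, 11 immediate early and 10 matrix genes. Of 19 antioxidant genes GSTA2, GSTA3 and MGST1 were higher, and of 11 uptake genes SCARB1 and SOAT1, with 0 lower. With the block, secreted factors were higher for 2 and lower for 9, and cell division genes for 0 and 8. Immediate early and matrix genes were higher for 2 and 1 and lower for 6 and 7. Antioxidant genes were higher for 7 and lower for 1, and uptake genes for 5 and 1. No transcription factor of 13 tested passed for all gated cells in edgeR without the block, and 1 was higher and 5 lower with it, beside the same shares of all genes.

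Gated cells with a gate share above the median of their library were then set against those at or below it, 413, 336 and 338 against 413, 337 and 339 cells. Of 9667 genes, 53 (0.548%) were higher and 186 (1.92%) lower in the upper group, with 829 (8.58%) and 1105 (11.4%) with the replicate block and 26 and 338 with library size alone. The lower group held all 114, 237 and 263 low-share cells. A split at 2% in place of the median called 381 genes (3.94%) higher and 386 (3.99%) lower. In the test at the median, leaving out cattle 2 or cattle 3 left 0 genes, with 716 and 668 at an unadjusted p under 0.05. The split at 2% called 53 and 33 without cattle 2 and 51 and 49 without cattle 3. When the high-share cells alone were divided at their median, it called 0 of 8287 genes, with 193 at an unadjusted p under 0.05.

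ALDH1A1 and SCARB1 were higher in the upper group. ALDH1A1 was at 2344, 9639 and 8534 CPM in the upper and 1337, 1437 and 1261 CPM in the lower group (log2 fold change 2.60 ± 0.44, adjusted p = 0.0188), and SCARB1 was at 492, 1262 and 465 CPM against 227, 184 and 56.4 CPM (2.49 ± 0.54, adjusted p = 0.0376). CHCHD10, ERP27 and SIPA1, a GTPase-activating protein that turns Rap off, rose by 2.50 ± 0.53, 2.50 ± 0.57 and 2.35 ± 0.38. Split at 2%, ALDH1A1, SCARB1, CHCHD10, ERP27 and SIPA1 rose by 4.86, 4.90, 4.625, 4.76 and 4.42. Among high-share cells alone ALDH1A1 differed by 0.49 and SCARB1 by 0.65 and neither passed. SCARB1, CHCHD10 and ERP27 did not pass without the deepest barcodes or when split within depth classes, where SCARB1 stood at 1.92. Without cattle 1 ERP27 stood at 3.28 and SCARB1 at 3.08, and without cattle 3 CHCHD10 at 1.87. In the test at the median FDX1 was called of 14 steroid genes, against 0.548% of all genes higher. Of 22 cholesterol synthesis genes it called SCAP, which escorts the SREBP transcription factors. With the replicate block 21 of 22 cholesterol synthesis genes were higher and 0 lower, and 7 of 14 steroid genes were higher and 3 lower, against 8.58% and 11.4% of all genes. The split at 2% called 13 cholesterol synthesis genes higher and 0 lower, and 4 steroid genes higher and 2 lower, against 3.94% and 3.99%.

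The largest falls included smooth muscle genes. TAGLN, an actin-binding protein of smooth muscle, was at 42.0, 21.0 and 48.6 CPM in the upper and 357, 721 and 1602 CPM in the lower group (log2 fold change -4.24 ± 0.58, adjusted p = 0.0127), and ACTG2, an actin of smooth muscle, fell by 4.07 ± 0.74. ALPL, an alkaline phosphatase, P4HA3, an enzyme of collagen maturation, and KRT18, an intermediate filament, fell by 4.24 ± 0.70, 4.16 ± 0.48 and 3.93 ± 0.78. ALPL stood at -2.20 when split within depth classes, where it did not pass, at -5.07 without cattle 1 and at -3.32 without cattle 2. The split at 2% gave -2.41 for ALPL, -3.91 for TAGLN, -3.97 for ACTG2, -3.73 for P4HA3 and -3.52 for KRT18. Of 15 stromal matrix genes 7 were lower and 0 higher, with a median of -2.29 against -0.09 over all genes tested, of which 1.92% were lower, and 8 did not pass. The 7 included DCN, COL1A1, COL1A2, COL3A1 and ELN. With the replicate block 11 were lower and 1 higher, against 11.4% and 8.58% of all genes. The groups did not overlap for TAGLN, ACTG2, ALPL, P4HA3 or KRT18.

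Cholesterol synthesis genes differed between animals in the high-share cells. Cattle 2 had the highest level for 19 of the 20 genes of the list with at least 60 UMIs, against 46.1% of all 4365 such genes. The exception was SCAP. Their median log2 ratio of cattle 2 was 1.72 over cattle 1 and 1.80 over cattle 3, where that of all genes was 0.29 and 0.14. HMGCS1 was at 85.2, 1407 and 124 CPM in high-share cells of cattle 1, 2 and 3. INSIG1, a brake on the pathway, was at 33.3, 523 and 35.1 CPM there. SQLE, which makes squalene epoxide, was at 58.6, 565 and 99.2 CPM. SCARB1, from the uptake list, was at 413, 1078 and 416 CPM, but only 2 of the 7 uptake genes with at least 60 UMIs were highest in cattle 2 and 3 were highest in cattle 1, with a median log2 ratio of cattle 2 over cattle 1 of -0.17.

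The stromal cells of the same libraries did not show this order to the same degree. Cattle 2 had the highest level for 8 of the 20 genes there, against 26.2% of all genes, with median log2 ratios of -0.04 over cattle 1 and 0.38 over cattle 3. HMGCS1 stood at 18.8, 66.6 and 49.99 CPM in stromal cells and INSIG1 at 7.83, 19.5 and 13.6 CPM. Immediate early genes had another order, with cattle 1 highest for 6 of 7 genes in high-share cells, against 27.9% of all genes, and for 4 of 7 in stromal cells, against 36.4%. With 1 sum of cells per animal these differences between animals have no test, and depth, free RNA and any condition of the animal cannot be told apart.

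**Figure D4:**
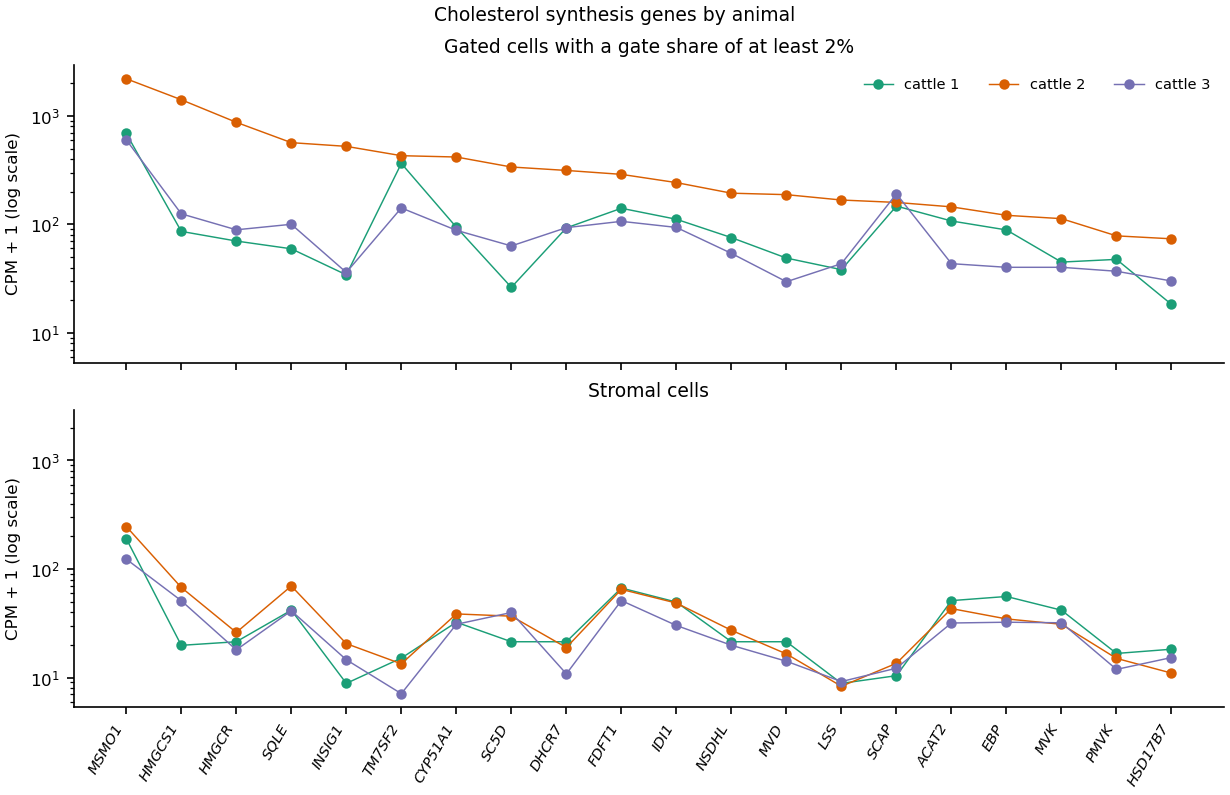
Level (CPM plus 1, log axis) of the 20 cholesterol synthesis genes with at least 60 UMIs, ordered by their level in cattle 2, in high-share gated cells (top) and in stromal cells (bottom). Each point is 1 animal and the lines only join the points. Cattle 2 is the highest in the top panel for every gene but SCAP, and for 8 genes in the bottom panel.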

How the data were processed

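Libraries were made with droplet v2 chemistry from total testicular cells, 1 per animal. The deposited files hold UMI counts per gene and barcode, unfiltered, which the authors made with Cell Ranger 2.1.0 per the labels, for 737280 barcodes and 19994 genes, of which 16350 have a symbol. The cattle assembly named in the submitters' processing notes is ARS-UCD1.2, and no coordinates or sequences were used here. Barcodes were called at a minimum of UMIs per library, set at the 99th percentile of the top 3000 barcodes divided by 10. No doublet caller was run, and the drop step removed gated barcodes with germ, Sertoli or lymphocyte genes. The members, gene lists and tests were chosen with earlier results of these data known.

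Raw counts were summed per animal and class and tested with edgeR 4.0.16 in R 4.3.3. The settings were TMM scaling, a quasi-likelihood test, at least 10 UMIs over the 6 sums and Benjamini-Hochberg adjusted p under 0.05. The SE given for an edgeR fold change was derived from that fold change and its F statistic. DESeq2 1.42.0 was an alternative, and the tests were checked on simulated data. There edgeR recovered 5%, 7% and 4% of 2-fold changes (other barcodes, stroma, gate-share groups) and 63%, 53% and 43% of 4-fold changes. Its false calls were 5.56%, 1.64% and 4.08%, and those of DESeq2 11.3%, 1.75% and 5.26%. The simulated sums were drawn independently at a fixed dispersion, with no animal effect or pairing. These rates thus need not hold for the paired sums of the data. A gene that did not pass may still differ. Sums used Python 3.11.15, numpy 2.4.6, scipy 1.17.1 and pandas 2.3.3, and figures matplotlib 3.10.9. Both sums of an animal come from 1 library, so the animals pair them. Deviations from the group means correlated by 0.53, 0.40 and 0.48 (cattle 1, 2 and 3) against all other barcodes, 0.53, 0.44 and 0.55 against stroma and 0.57, 0.46 and 0.52 between gate-share groups. The fit without the block was kept as the main one, and counts and calls that the block changes are given beside the named genes and the main lists. Named genes were the 10 largest and 10 smallest log2 fold changes past the threshold against all other barcodes (5 and 5 in the other comparisons) with the same sign in 3 animals and at least 20 UMIs per animal on the higher side, up to 4 called genes per list, and a set list of Leydig and stromal genes. Of these, 2 genes are not reported here and were left out of the lists. Alternatives changed the scaling, the tool, the filter, the gate, the drop step and the animals. Pig libraries were not analysed here beyond their number of barcodes.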

Additional observations from a re-analysis of the deposited data

Results flagged for a closer look

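In cattle 1, 319 called barcodes that failed the gate carried at least 2% of their UMIs on the 6 gate genes, against 5 in cattle 2 and 8 in cattle 3. They were singled out because this signal lay in barcodes that no comparison counts as Leydig cells. Their median depth in cattle 1 was 835 UMIs and their median gate share 14.2%, close to the 15.9% of the high-share cells. They held TIMP2 at 17051 CPM and GSTA3 at 23909 CPM, where high-share cells of cattle 1 held 21975 and 31359 CPM. STAR stood at 428 CPM there against 1989 CPM in the high-share cells, and LHCGR was at 0, for which the depth allows up to 10.2 CPM. With every barcode of at least 2% gate share counted and no drop signature, the number would be 1031, 440 and 420. The share of gate-gene UMIs in empty droplets was also highest in this library, and its part in these barcodes was not tested.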

How the results depend on the processing

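The counts of called genes depended on the setting, and the cause was not tested. Against all other barcodes, DESeq2 called 512 higher and 457 lower, no filter 284 lower, library size alone 594 lower, a gate of 8 UMIs over 4 genes 523 and 712, a gate share of at least 2% 772 and 1153, one of at least 5% 799 and 1246, also dropping macrophage and endothelial genes 286 lower, and the replicate block 1476 and 1899. Leaving out each animal gave 0 to 599 higher and 0 to 688 lower. For high-share cells it gave 84 to 1038 higher and 32 to 1447 lower, and the block 1789 and 2704.

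Against stroma, DESeq2 called 420 and 172, no filter 127 lower, library size alone 103 lower, the gate of 8 UMIs 689 and 742, gate shares of 2% and 5% 825 and 943, and 845 and 992, no deepest barcodes 82 lower, the further drop 97 lower, and the block 1457 and 1406. Leaving out each animal gave 20 to 367 higher and 0 to 83 lower, for high-share cells 192 to 1113 and 188 to 1310, and the block there 1688 and 2144.

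Between gate-share groups, DESeq2 called 124 higher, library size alone 26 and 338, no filter 245 and 491, no deepest barcodes 35 higher, the further drop 28 higher, a split within depth classes 18 and 118, a split at 2% 381 and 386, the high-share cells alone 0 and 0, and the block 829 and 1105. Leaving out each animal gave 0 to 295 higher and 0 to 496 lower, and for the split at 2% 51 to 519 and 33 to 570, with 1160 and 1073 under the block.

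The gated cells numbered 1065 after thinning and 1081 with the gate of 8 UMIs, against 2176. PDGFRA changed sign, from 0.23 to -0.0910 with library size alone, -0.46 with the gate of 8 UMIs, -0.0425 without the deepest barcodes, and -0.73 and -0.91 at gate shares of 2% and 5%. Leaving out each animal gave PDGFRA values from -0.00500 to 0.346, the lowest without cattle 3. It did not pass the threshold in any of these. Of 60 named values, 44 lost the threshold without cattle 2, 43 without cattle 3, 13 without the deepest barcodes and 3 with library size alone. The further drop of macrophage and endothelial genes ended 2 calls. The gate of 8 UMIs, not run between gate-share groups, ended 1, that of DDX43 (edgeR, adjusted p = 0.0564). With the block 8 values gained the threshold and no call ended. All 10 named values between gate-share groups lost the threshold among the high-share cells alone, and 4 of these 10 when split within depth classes. NR5A1 rested on 19 UMIs in gated cells, and its adjusted p was 0.165, 0.0429 without cattle 1, 0.671 without cattle 2, 0.559 without cattle 3, 0.0703 with DESeq2, 0.141 with the gate of 8 UMIs, 0.0425 and 0.0745 at gate shares of 2% and 5%, and 0.0019 with the block.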
